A study of Mus musculus with 12 samples.

Results

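The 10 genes described here encode C-type lectin receptors of myeloid cells: *Clec4a1*, *Clec4a2*, *Clec4a3*, *Clec4d*, *Clec4e*, *Clec4n*, *Clec5a*, *Clec7a*, *Clec10a* and *Clec12a*. They were chosen by symbol from the 26699 gene symbols counted, with earlier results of these data known. All 10 were among the 11927 genes with enough counts to be tested. RNA was sequenced from MHCII+ macrophages sorted out of whole synovium of wild-type C57BL/6 mice, after the tissue had been incubated for 4 h with 100 nM CGRP (calcitonin gene-related peptide, a peptide released by pain-sensing neurons) or with vehicle. There were 3 libraries for each of 4 groups: IAIE cells (MHCII+ CD11c-) from control or CGRP-treated tissue, and CD11c cells (MHCII+ CD11c+) from control or CGRP-treated tissue. The labels do not give the age of the mice or say whether replicates came from separate animals, so that p-values measure the spread between these libraries. CGRP was added to the whole tissue, so other cells of the synovium met it too.

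C-type lectin receptors are transmembrane proteins that bind sugars and lipids of microbes and of damaged cells. Dectin-1 (*Clec7a*), Dectin-2 (*Clec4n*), MCL (*Clec4d*), Mincle (*Clec4e*) and MDL-1 (*Clec5a*) activate the kinase Syk. Dectin-1 does so through its own tail, Dectin-2, MCL and Mincle through the adaptor FcRγ (*Fcer1g*), and MDL-1 through the adaptor DAP12 (*Tyrobp*). Clec12A and DCIR1 (*Clec4a2*) carry inhibitory motifs that recruit phosphatases such as SHP-1 (*Ptpn6*). Macrophages use these receptors to sense fungi, mycobacteria and dead cells, and MGL1 (*Clec10a*) binds terminal galactose and *N*-acetylgalactosamine.

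In the mouse genome (GRCm38, the sequence also called mm10), 9 of the 10 genes lie on chromosome 6 and *Clec10a* lies on chromosome 11 (70156197 to 70170834). A stretch of 368.0 kb on chromosome 6 (122921848 to 123289870) holds 6 of them in the order *Clec4a1*, *Clec4a3*, *Clec4a2*, *Clec4n*, *Clec4d* and *Clec4e*. *Clec4n* (123229843 to 123247021) ends 15.1 kb before *Clec4d* (123262111 to 123275265). *Clec4e* (123281789 to 123289870) is read from the opposite strand and ends 6.5 kb beyond *Clec4d*. Further along the chromosome, *Clec12a* (129342691 to 129365303) and *Clec7a* (129461591 to 129472779) are 96.3 kb apart, and *Clec5a* (40574894 to 40585821) stands alone. No exon in the basic GENCODE transcripts of the 10 genes overlaps an exon of another gene. Exons found only in their other transcripts were not checked.

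The promoters of *Clec4d* and *Clec4e* are shown because these neighbours differed in their response to CGRP, and that of *Clec12a* because its transcript moved in the opposite direction to *Clec4d*. Each is the 250 bases before the RefSeq start on GRCm38.p6, with matches to the searched motifs in capitals: *Clec4d* at chr6:123261857-123262106 on the plus strand, *Clec4e* at chr6:123289872-123290121 on the minus strand and *Clec12a* at chr6:129349994-129350243 on the plus strand.
Clec4d: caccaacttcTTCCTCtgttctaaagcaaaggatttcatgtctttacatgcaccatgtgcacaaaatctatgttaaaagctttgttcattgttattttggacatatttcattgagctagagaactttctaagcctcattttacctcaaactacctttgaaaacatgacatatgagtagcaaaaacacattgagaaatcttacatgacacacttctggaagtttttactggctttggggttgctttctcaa
Clec4e: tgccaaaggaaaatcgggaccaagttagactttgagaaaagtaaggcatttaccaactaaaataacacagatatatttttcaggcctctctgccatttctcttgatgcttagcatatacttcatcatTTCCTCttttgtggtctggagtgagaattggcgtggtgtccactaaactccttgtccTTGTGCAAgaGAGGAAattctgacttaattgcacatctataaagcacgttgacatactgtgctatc
Clec12a: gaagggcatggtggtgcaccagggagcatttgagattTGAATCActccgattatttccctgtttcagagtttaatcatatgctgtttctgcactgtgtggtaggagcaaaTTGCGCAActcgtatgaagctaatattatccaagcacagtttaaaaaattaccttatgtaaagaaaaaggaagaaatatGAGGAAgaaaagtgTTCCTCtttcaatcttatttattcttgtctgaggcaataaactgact

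The motifs searched on both strands were the cAMP response element TGACGTCA, its shorter core TGACG, the AP-1 site TGANTCA, the C/EBP site TTGCNNAA, the GAS site TTCNNNGAA, the ISRE and the PU.1 core GAGGAA. The shorter core lies within the full response element, so these 2 overlap. The response element and its core are given because the CGRP receptor is known to raise cAMP. Neither matched in the 250 bases before any start of the 8 genes with a RefSeq promoter entry. *Clec4n* and *Clec10a* had no entry and were not searched. Of all 32851 promoters of that length, 1.55% hold the full element and 17.8% hold the core. At these shares, 8 genes without a match are too few to show a lack of either. The *Clec4d* window held 1 PU.1 core, present in 23.3% of promoters. The *Clec4e* window held 2 PU.1 cores and a C/EBP match, present in 9.56% of promoters. The *Clec12a* window held 2 PU.1 cores, a C/EBP match and an AP-1 match, the last present in 6.75% of promoters. These matches describe letters only.

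Libraries held between 2127191 and 5649698 counts, and 3 counts, the floor of detection used, corresponded to between 0.531 and 1.41 CPM (counts scaled to the size of each library). Levels are TMM-scaled CPM, the mean and SD are over 3 libraries, and log2 fold changes are given with their SE. In bulk samples, fewer cells of a type cannot be told apart from less RNA per cell.

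In IAIE cells, CGRP moved 4 of the 10 receptor genes past the threshold (adjusted p under 0.05 by edgeR's quasi-likelihood test), against 9.21% of all genes tested. Because the 10 were chosen with earlier results of these data known, their shares and medians here and below cannot test for an excess. *Clec4d* and *Clec4n* rose, beside 5.32% of all genes, and *Clec4a1* and *Clec10a* fell, beside 3.89%. In CD11c cells 3 of 10 passed, against 10.9% of all genes: *Clec4d* and *Clec4n* rose, beside 6.29% of all genes, and *Clec12a* fell, beside 4.59%. The median log2 fold change over the 10 genes was -0.36 in IAIE cells and -0.22 in CD11c cells, beside -0.02 and 0.00 over all genes. Groups without overlap occurred for 24.9% of all genes in the IAIE comparison and 29.2% in the CD11c comparison, and for 5 of the 10 receptor genes in each.

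*Clec4n*, which encodes the α-mannan receptor Dectin-2, had the largest rise with CGRP among the 10 genes in both subsets. Its levels were 50.9, 68.2 and 53.3 CPM in IAIE control libraries (57.5 ± 9.41) and 102, 128 and 156 in IAIE CGRP libraries (129 ± 26.8). In CD11c cells they were 86.1, 116 and 85.0 CPM in control libraries (95.7 ± 17.6) and 366, 457 and 517 with CGRP (446 ± 75.6). All CGRP libraries lay above the control libraries of the same subset, and the CD11c CGRP libraries lay above every other library. The rise was 2.23-fold in IAIE cells (log2 1.16 ± 0.19, adjusted p = 4.36e-04) and 4.66-fold in CD11c cells (log2 2.22 ± 0.18, adjusted p = 3.55e-07). Of the words of 31 bases in its transcripts, 2.0% are shared with the predicted gene *Gm44147*.

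*Clec4d* encodes MCL, a receptor that pairs with Mincle and binds mycobacterial cord factor. It stood at 221, 277 and 238 CPM in IAIE control libraries (245 ± 29.1) and at 440, 492 and 525 with CGRP (486 ± 43.1). In CD11c cells it stood at 159, 170 and 146 CPM without CGRP (158 ± 12) and at 289, 305 and 317 with it (304 ± 13.7). None of the 4 groups overlapped another, in the order IAIE CGRP, CD11c CGRP, IAIE control and CD11c control. CGRP raised *Clec4d* by 0.99 ± 0.13 on the log2 scale in IAIE cells (adjusted p = 3.79e-05) and by 0.94 ± 0.13 in CD11c cells (adjusted p = 4.38e-05). These effects differed by -0.04 ± 0.18 (CD11c minus IAIE, 95% interval -0.41 to 0.33, adjusted p = 0.970).

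*Clec4e*, the gene of Mincle, did not pass the threshold in any comparison. It was measured at 457, 498 and 380 CPM in IAIE control libraries (445 ± 59.7), 373, 510 and 466 in IAIE CGRP libraries (450 ± 70.2), 556, 501 and 440 in CD11c control libraries (499 ± 58.0) and 428, 574 and 355 in CD11c CGRP libraries (452 ± 111). All 4 groups overlapped. The log2 difference with CGRP was 0.01 ± 0.17 in IAIE cells (95% interval -0.34 to 0.36, adjusted p = 0.978) and -0.14 ± 0.17 in CD11c cells (-0.49 to 0.21, adjusted p = 0.697). A rise as large as that of its neighbour *Clec4d* lies outside both intervals.

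Counts of the 2 neighbours within a library gave the same contrast without any scaling. In IAIE cells, *Clec4d* had 0.555 ± 0.0709 counts for each *Clec4e* count in control libraries and 1.09 ± 0.112 with CGRP. In CD11c cells the ratio was 0.319 ± 0.0283 without CGRP and 0.700 ± 0.182 with it. Neither pair of groups overlapped. For *Clec4n* against *Clec4d*, the ratio was 0.234 ± 0.0113 and 0.263 ± 0.0324 in IAIE cells, where the groups overlapped, and 0.603 ± 0.0735 and 1.47 ± 0.185 in CD11c cells, where they did not.

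**Figure D1:**
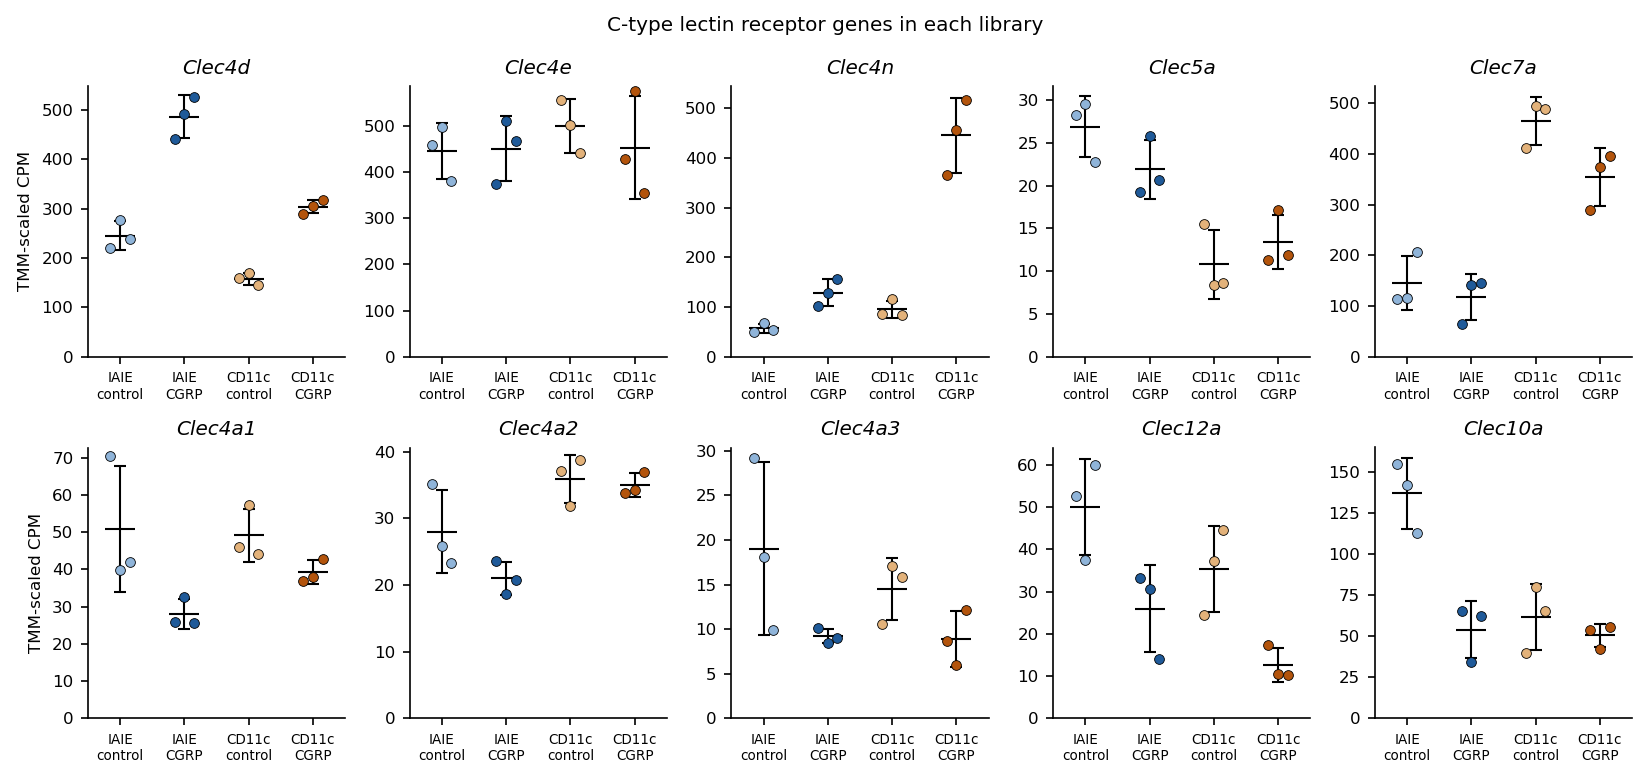
TMM-scaled CPM of each receptor gene (vertical axis, from 0) in each of the 4 groups (horizontal axis). Points are libraries and bars are the mean and SD over 3. *Clec4n* and *Clec4d* lie higher with CGRP in both subsets, and *Clec4e* overlaps across all groups.

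*Clec7a*, the gene of the β-glucan receptor Dectin-1, was higher in CD11c cells than in IAIE cells under both treatments. Levels were 115, 116 and 207 CPM in IAIE control libraries (146 ± 52.7) and 65.4, 142 and 146 in IAIE CGRP libraries (118 ± 45.5). CD11c libraries held 411, 495 and 489 CPM without CGRP (465 ± 46.9) and 289, 375 and 397 with it (354 ± 57.1). Every CD11c library lay above every IAIE library. The CD11c level was 3.21-fold higher in control libraries (log2 1.68 ± 0.25, adjusted p = 7.65e-05) and 3.0-fold higher with CGRP (log2 1.58 ± 0.25, adjusted p = 1.34e-04). The CGRP difference did not pass in IAIE cells (-0.30 ± 0.25, adjusted p = 0.555) or in CD11c cells (-0.40 ± 0.24, 95% interval -0.90 to 0.11, adjusted p = 0.371), although the CD11c groups did not overlap.

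*Clec5a*, which encodes MDL-1, was lower in CD11c cells than in IAIE cells among control libraries. It stood at 28.2, 29.5 and 22.8 CPM in IAIE cells without CGRP and 19.3, 25.8 and 20.6 with it, and in CD11c cells at 15.5, 8.42 and 8.58 without it and 11.3, 17.1 and 11.9 with it. All 6 CD11c libraries lay below all 6 IAIE libraries. Without CGRP the level was lower in CD11c cells by a log2 difference of -1.35 ± 0.30 (adjusted p = 0.00261). With CGRP the difference was -0.71 ± 0.28 and did not pass (adjusted p = 0.0973), except with limma-voom and quality weights (-0.78, adjusted p = 0.0290). No CGRP effect passed in IAIE cells (-0.30 ± 0.28, adjusted p = 0.591) or CD11c cells (0.34 ± 0.30, adjusted p = 0.573).

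Among the inhibitory receptors, *Clec12a*, whose product binds uric acid crystals and dampens myeloid activation, was the one that fell in CD11c cells. It was measured there at 24.5, 37.2 and 44.6 CPM without CGRP (35.4 ± 10.2) and at 17.3, 10.4 and 10.3 with it (12.7 ± 3.99), so that the groups did not overlap. The level was 2.81-fold lower with CGRP (log2 -1.49 ± 0.32, adjusted p = 0.00373). In IAIE cells it was 52.7, 37.6 and 60.0 CPM without CGRP (50.1 ± 11.4) and 33.3, 30.6 and 14.1 with it (26.0 ± 10.4), also without overlap. That difference of -0.95 ± 0.31 stood at adjusted p = 0.0620. It passed with upper-quartile scaling (adjusted p = 0.0460), with every gene of at least 1 count (0.0140), with at least 10 counts in every library (0.0344), with DESeq2 (0.0270) and with the compared libraries alone (adjusted p = 0.0360).

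The genes of the DCIR family, *Clec4a1*, *Clec4a2* and *Clec4a3*, lie side by side with 2 other lectin genes among them and gave 1 call in 6 tests of CGRP, beside 9.21% of all genes called in IAIE cells and 10.9% in CD11c cells. *Clec4a1* fell in IAIE cells, from 70.4, 39.8 and 42.1 CPM (50.8 ± 17.0) to 25.9, 32.6 and 25.6 (28 ± 3.91). The difference was -0.86 ± 0.22 (adjusted p = 0.0166) and the groups did not overlap. This call was lost without IAIE control replicate 1, the highest library (-0.54, adjusted p = 0.151), without IAIE CGRP replicate 1 (-0.80, adjusted p = 0.0711) and without IAIE CGRP replicate 3 (-0.79, adjusted p = 0.0785). In CD11c cells *Clec4a1* stood at 46.1, 57.3 and 44.0 CPM without CGRP and 37.0, 37.9 and 42.9 with it, which did not overlap and did not pass (-0.32 ± 0.22, adjusted p = 0.424).

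*Clec4a2*, the gene of DCIR1, stood at 35.1, 25.8 and 23.3 CPM in IAIE cells without CGRP and 23.6, 18.7 and 20.7 with it, and in CD11c cells at 37.1, 31.8 and 38.8 without it and 33.8, 34.2 and 37.0 with it. The CGRP difference was -0.42 ± 0.21 in IAIE cells (adjusted p = 0.258) and -0.04 ± 0.20 in CD11c cells (95% interval -0.46 to 0.39, adjusted p = 0.949). With CGRP, CD11c cells had 1.67-fold more than IAIE cells, without overlap (log2 0.74 ± 0.21, adjusted p = 0.0178). That call was lost without IAIE CGRP replicate 2 (0.66, adjusted p = 0.0841), IAIE CGRP replicate 3 (0.73, adjusted p = 0.0531) or CD11c CGRP replicate 3 (0.70, adjusted p = 0.0714). Of its 31-base words, 10.3% are shared with other genes, and the effect of this on its counts was not tested.

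*Clec4a3*, the gene of DCIR3, stood at 29.2, 18.1 and 9.85 CPM in IAIE cells without CGRP and 10.1, 8.50 and 9.05 with it, and in CD11c cells at 10.6, 17.1 and 15.9 without it and 8.63, 5.94 and 12.1 with it. The IAIE control libraries spread most widely, and control and CGRP groups overlapped in both subsets. The difference with CGRP was -1.06 ± 0.37 in IAIE cells (adjusted p = 0.0879) and -0.71 ± 0.37 in CD11c cells (adjusted p = 0.283). The IAIE difference passed with at least 10 counts in every library (adjusted p = 0.0497), with DESeq2 (0.0475) and without IAIE control replicate 3 (-1.33, adjusted p = 0.0276).

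*Clec10a*, the gene of MGL1, was lower with CGRP in IAIE cells. Its IAIE control libraries held 155, 142 and 113 CPM (137 ± 21.7). With CGRP it stood at 65.6, 34.0 and 62.2 CPM in IAIE cells (54.0 ± 17.4), and in CD11c cells it stood at 40.0, 80.2 and 65.2 without CGRP (61.8 ± 20.3) and 53.5, 42.3 and 55.7 with it (50.5 ± 7.17). All IAIE control libraries lay above the other 9 libraries, which overlapped. *Clec10a* was 2.54-fold lower with CGRP in IAIE cells (log2 -1.34 ± 0.24, adjusted p = 0.00113), and the difference in CD11c cells was -0.30 ± 0.24 (95% interval -0.81 to 0.21, adjusted p = 0.534). It shares 13.7% of its 31-base words with its close copy *Mgl2*, so reads may have been split between them. *Mgl2* fell in both subsets, by 1.08 ± 0.20 on the log2 scale in IAIE cells (adjusted p = 0.00170) and by 1.51 ± 0.20 in CD11c cells (adjusted p = 4.38e-05).

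**Figure D2:**
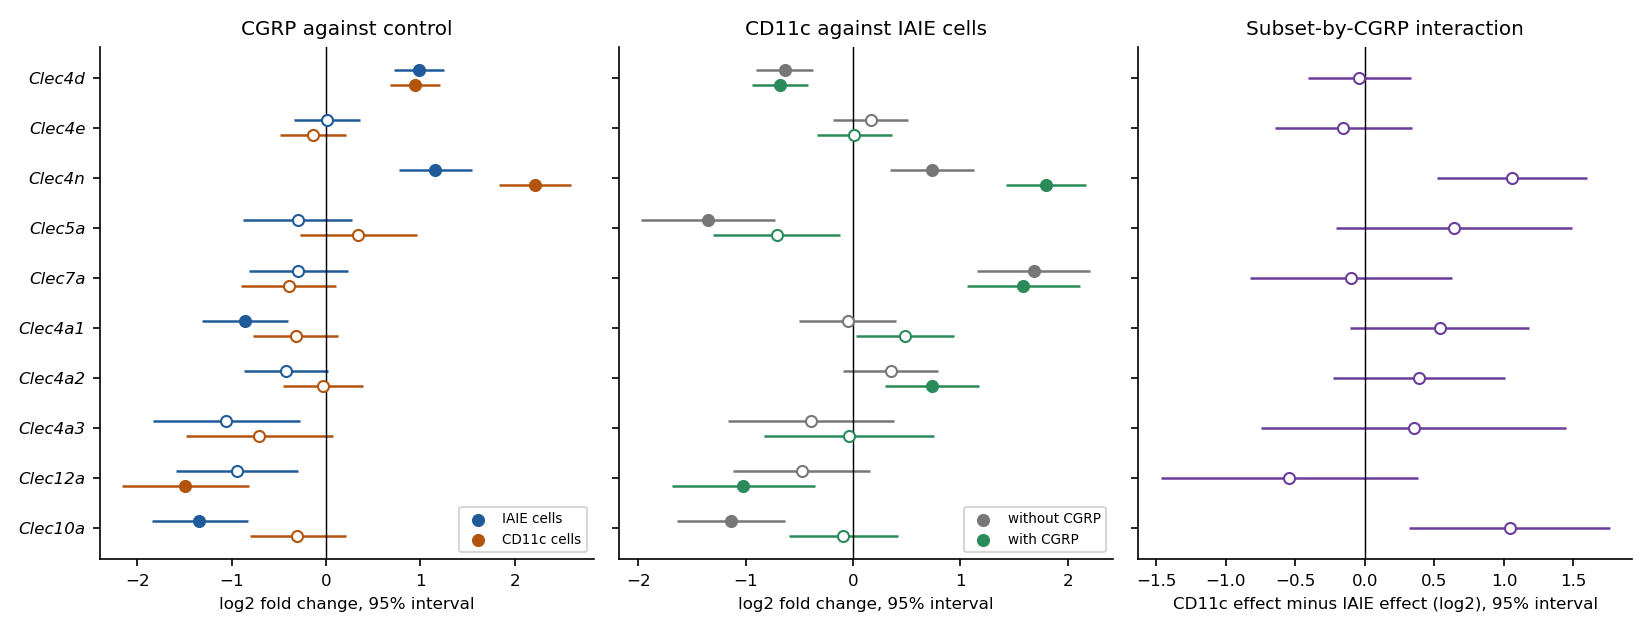
Log2 fold changes with 95% intervals (horizontal axes) for each receptor gene (vertical axis), for CGRP against control, for CD11c against IAIE cells and for the difference between the CGRP effects. Filled points passed an adjusted p of 0.05 and open points did not; no point of the third panel is filled.

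Whether the subsets differed in their response to CGRP was tested as an interaction, the effect in CD11c cells minus that in IAIE cells. None of the 10 genes passed by edgeR, against 0.151% of all genes, and 2 had an unadjusted p under 0.05. DESeq2 called 1 and limma-voom called 0. The *Clec4n* effect was larger in CD11c cells by 1.06 ± 0.26 (95% interval 0.52 to 1.60, adjusted p = 0.130). It passed with every gene of at least 1 count (0.99, adjusted p = 0.00321), with the replicate number as a block (1.07, adjusted p = 0.0404) and with DESeq2 (1.05, adjusted p = 0.0216). The *Clec10a* effects differed by 1.04 ± 0.34 (0.32 to 1.76, adjusted p = 0.325), and this passed with every gene of at least 1 count (0.96, adjusted p = 0.0370). The other 8 differences lay between -0.55 and 0.64.

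The subsets were compared with each other within each treatment. Without CGRP, 5 of the 10 genes passed, against 21.2% of all genes: *Clec4n* and *Clec7a* were higher in CD11c cells, beside 10.2% of all genes, and *Clec4d*, *Clec5a* and *Clec10a* were lower, beside 10.9%. With CGRP, 5 passed against 16.9% of all genes: *Clec4n*, *Clec7a* and *Clec4a2* were higher, beside 8.36% of all genes, and *Clec4d* and *Clec12a* were lower, beside 8.51%. Groups without overlap numbered 5 of 10 without CGRP, beside 34.2% of all genes, and 6 of 10 with it, beside 34.8%. For *Clec4n* the subset difference was 0.73 ± 0.19 without CGRP (adjusted p = 0.00814) and 1.79 ± 0.18 with it (adjusted p = 7.88e-07). For *Clec4d* it was -0.63 ± 0.13 (adjusted p = 0.00122) and -0.68 ± 0.12 (adjusted p = 5.71e-04). For *Clec10a* it was -1.13 ± 0.24 without CGRP (adjusted p = 0.00214) and -0.09 ± 0.24 with it (adjusted p = 0.860). The *Clec12a* difference with CGRP was -1.02 ± 0.32 (adjusted p = 0.0331) with overlapping groups. It was lost with a surrogate variable (-1.02, adjusted p = 0.0621), after thinning all libraries to the lowest total (-0.93, adjusted p = 0.0903), and without IAIE CGRP replicate 1 (-0.81, adjusted p = 0.163), IAIE CGRP replicate 2 (-0.88, adjusted p = 0.134), CD11c CGRP replicate 2 (-0.90, adjusted p = 0.113) or CD11c CGRP replicate 3 (-0.88, adjusted p = 0.140).

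Along the 368.0 kb cluster the genes that rose stood next to each other. *Clec4n* and *Clec4d* are neighbours, and *Clec4e* beyond them had intervals that held 0 in both subsets. On the far side of *Clec4n*, the 3 DCIR genes had estimates at or below -0.04 in both subsets. Between them, *Clec4b1*, which encodes the lectin DCAR, had differences of -1.70 ± 0.59 in IAIE cells (adjusted p = 0.0840) and -0.88 ± 0.43 in CD11c cells (adjusted p = 0.245), from mean levels of 4.52 and 25.0 CPM in control libraries. *Clec4a4* and *Clec4b2* had too few counts to test.

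**Figure D3:**
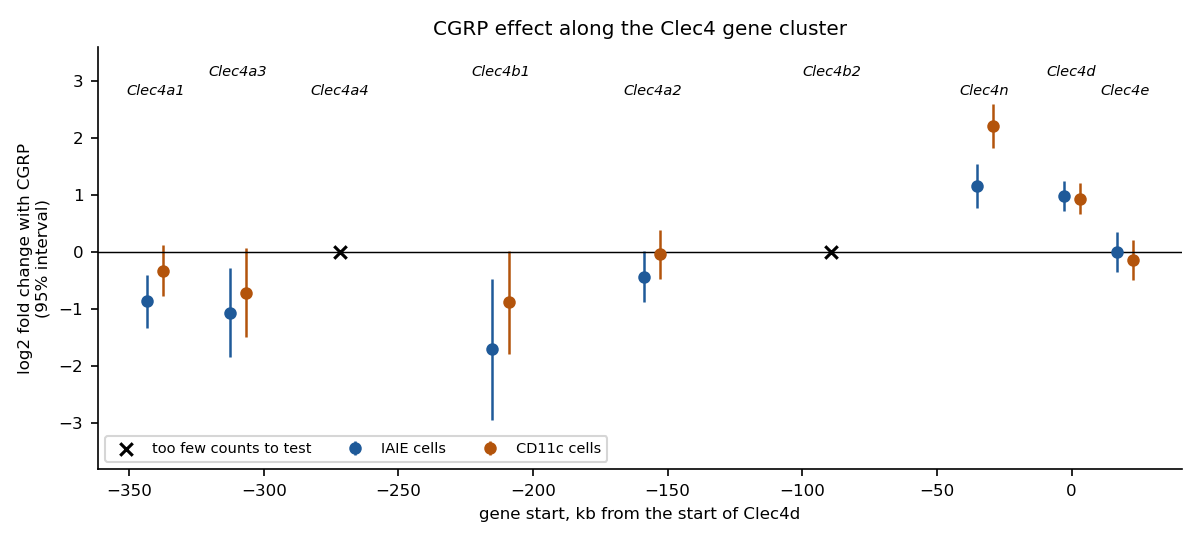
Log2 fold change with CGRP (vertical axis, points with 95% intervals) against the position of each gene's start in kb from the start of *Clec4d* (horizontal axis). Crosses are genes with too few counts to test. *Clec4n* and *Clec4d* lie above 0 in both subsets.

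Per kilobase of exon, which allows levels of different genes to be compared, the leading receptor differed between groups. In IAIE control libraries *Clec4d* (185 ± 21.7 CPM per kb) and *Clec4e* (177 ± 23.8) lay within each other's spread. With CGRP *Clec4d* led in IAIE cells at 367 ± 32.4 CPM per kb. In CD11c control libraries *Clec7a* (203 ± 20.5) and *Clec4e* (198 ± 23.0) lay within each other's spread, and with CGRP *Clec4n* led at 360 ± 61.2 CPM per kb. *Clec4n* made up 7.54% ± 0.939 of the summed level of the 10 genes in IAIE control libraries, 13.3% ± 1.44 with CGRP, and in CD11c cells 11% ± 1.27 without CGRP and 35.9% ± 3.29 with it. *Clec4d* made up 30.3% ± 2.70, 47.7% ± 1.82, 17.2% ± 0.694 and 23.1% ± 1.48 of it in the same order. Lengths were taken from basic GENCODE transcripts. With the exons of every annotated transcript, *Clec4e* had 100.0 in place of 198 CPM per kb in CD11c control libraries, against 176 for *Clec7a*. In IAIE control libraries *Clec4e* then had 89.8 CPM per kb against 153 for *Clec4d*. Both near ties therefore depend on the lengths used, and the leading gene of each group was the same. *Clec5a* was lowest in all 4 groups by the basic lengths and in the control groups by the longer ones, where *Clec12a* was lowest with CGRP.

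**Figure D4:**
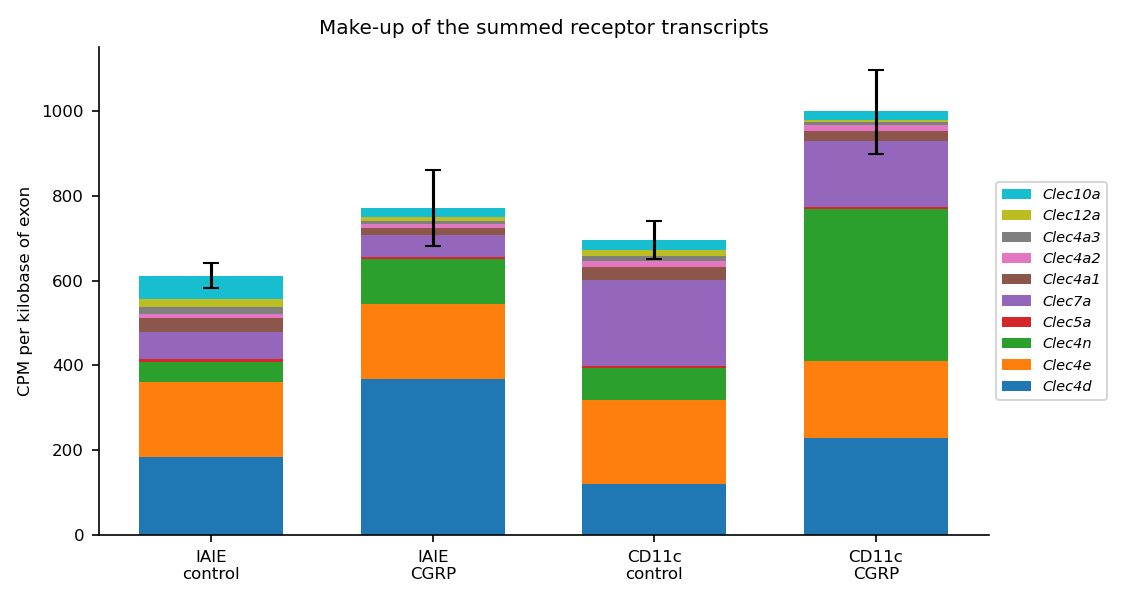
Stacked mean level of the 10 receptor genes in CPM per kilobase of exon (vertical axis, from 0) in each group (horizontal axis), with the SD of the sum over 3 libraries as bars. The sum is 612 ± 29.3, 771 ± 89.9, 696 ± 45.2 and 998 ± 98.4 from left to right, and *Clec4n* fills the largest share in CD11c CGRP libraries.

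Across the 12 libraries the log2 levels of *Clec4n* spanned the widest range of group means (2.93) and those of *Clec4e* the narrowest (0.17). The genes whose log2 CPM followed *Clec4n* most closely were *Tarm1* (Pearson r = 0.987 over 12 libraries), which encodes a receptor that signals through FcRγ, *Pla2g7* (0.985), *Ncoa7* (0.977) and *Ass1* (0.969). For *Clec7a* they were *Crem* (r = 0.970), a cAMP-responsive transcription factor gene, *Fscn1* (0.965), *Cd80* (0.963), *Gprc5a* (0.962) and *Klrk1* (0.958). Among the 10 genes, *Clec4n* and *Clec12a* ran in opposite directions (r = -0.91), *Clec4a3* and *Clec10a* together (r = 0.75), and the neighbours *Clec4d* and *Clec4e* had r = -0.19. These values describe 12 libraries in 4 groups that share their treatments.

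The adaptors and signalling genes of these receptors were measured beside them, and the 21 reported here were all tested. Of these 21, edgeR called 3 lower with CGRP in each subset, beside 3.89% of all genes in IAIE cells and 4.59% in CD11c cells. Their medians were -0.05 and -0.03, beside -0.02 and 0.00 over all genes. The 21 are not the whole list, so these counts leave out a called gene. *Fcer1g*, the adaptor of Dectin-2, MCL and Mincle, differed by 0.04 in IAIE cells (adjusted p = 0.905) and -0.14 in CD11c cells (adjusted p = 0.632). *Tyrobp*, the adaptor of MDL-1, fell in CD11c cells (-0.69 ± 0.14, adjusted p = 0.00192) and differed by -0.38 in IAIE cells (adjusted p = 0.106). *Plcg2*, the phospholipase below Syk, fell in IAIE cells (-0.68 ± 0.14, adjusted p = 0.00343) and CD11c cells (-0.74 ± 0.14, adjusted p = 0.00127). *Vav1*, an exchange factor on the same path, also fell (-0.62 ± 0.15, adjusted p = 0.0131, and -0.80 ± 0.16, adjusted p = 0.00173). *Ptpn6* fell in IAIE cells (-0.81 ± 0.22, adjusted p = 0.0252). *Syk* (-0.02 and -0.27, adjusted p = 0.963 and 0.160) and *Card9* (-0.49 and -0.54, adjusted p = 0.567 and 0.515) did not pass in either subset.

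Of 27 other C-type lectin genes, 20 were tested. In IAIE cells 3 were lower with CGRP, beside 3.89% of all genes: *Mgl2*, *Cd302* (-1.09 ± 0.31, adjusted p = 0.0301) and *Mrc1*, the mannose receptor gene (-0.49 ± 0.15, adjusted p = 0.0493). In CD11c cells *Cd69* (1.14 ± 0.31, adjusted p = 0.0188) and *Ly75*, which encodes DEC-205 (1.41 ± 0.43, adjusted p = 0.0384), rose, beside 6.29% of all genes. *Cd209a*, a DC-SIGN gene (-1.91 ± 0.18, adjusted p = 2.26e-06), *Mgl2* and *Olr1* (-1.61 ± 0.34, adjusted p = 0.00333) fell there, beside 4.59%. The median over the 20 was -0.80 for IAIE cells and -0.68 for CD11c cells, with the same values over the 18 left without *Clec1a* and *Clec4g*, which had a group at 0 or within 3 counts. Over all genes the medians were -0.02 and 0.00.

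**Figure D5:**
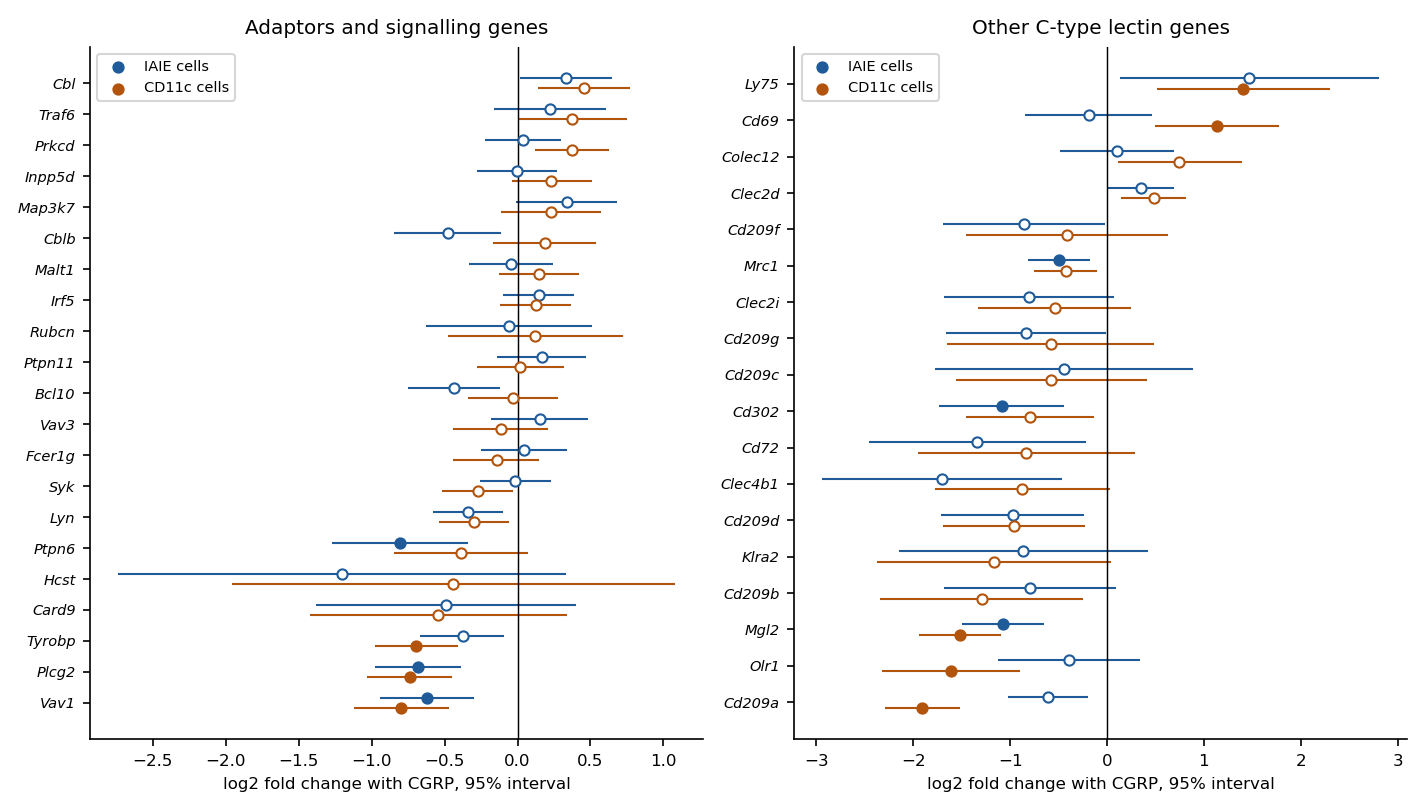
Log2 fold change with CGRP and 95% interval (horizontal axes) for the signalling genes (left) and the other C-type lectin genes (right), sorted by the CD11c value. Filled points passed an adjusted p of 0.05; genes with a group in which no library exceeded 3 counts are not drawn.

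Several receptors are also expressed by neutrophils, monocytes and dendritic cells, so markers of these cells were summed in each library. Neutrophil markers summed to 54.2 to 415 CPM in IAIE control, 114 to 342 with CGRP, 18.8 to 575 in CD11c cells without CGRP and 18.2 to 286 with it, so that the groups overlapped, and *Ly6g* was at or under 3 counts in every library of 3 groups. With CGRP 0 of 8 tested neutrophil markers were called in IAIE cells and 1, *Csf3r*, was lower in CD11c cells. Monocyte markers also overlapped, at 181 to 263, 196 to 314, 164 to 229 and 195 to 316 CPM in the same order, with 0 of 6 called in IAIE cells and 1 (*Vcan*, higher) in CD11c cells. Dendritic cell markers summed to 109 to 178 and 90.5 to 117 CPM in IAIE cells and 641 to 717 and 688 to 787 in CD11c cells, and so differed between subsets in the direction of *Clec7a* and *Clec4n*. Within this list, *Cd209a*, *Ccr7*, *Zbtb46* and *Kit* were higher in CD11c cells under both treatments, and *Dpp4* only without CGRP. *Flt3* did not pass between subsets under either treatment, nor did *Xcr1* (0.11 without CGRP and -0.60 with it, adjusted p = 0.877 and 0.337). With CGRP, *Flt3* was lower in IAIE cells, and in CD11c cells *Cd209a*, *Flt3* and *Dpp4* were lower and *Ccr7* was higher of 7 tested, with a median log2 change of -0.96. The CD11c sum therefore combines a rise of *Ccr7* with falls of other markers. B cell markers summed to 43.7 to 91.5 CPM in IAIE control and 17.7 to 31.5 in IAIE CGRP libraries, without overlap. Macrophage markers summed to 5000 to 6710 CPM in CD11c control and 3440 to 4070 in CD11c CGRP libraries, also without overlap. Of the 6 tested, *Lyz2* was lower in CD11c cells (mean 4370 CPM without CGRP and 2680 with it) and held most of the sum. *Fcgr1* was higher with CGRP in CD11c cells (37.7 and 132 CPM) and in IAIE cells (105 and 274 CPM). The MHC class II genes used in the sort were lower with CGRP in both subsets, and *Itgax* in CD11c cells. Fibroblast markers summed to 308 to 1550 CPM in IAIE control and 567 to 771 in IAIE CGRP libraries, where of 6 tested *Pdpn* was higher and *Col1a1*, *Col1a2* and *Col3a1* were lower with CGRP. The groups overlapped for these 3 collagen genes, which were highest in IAIE control replicate 2 (*Col1a1* 35.1, 670 and 91.8 CPM in the control libraries). In CD11c cells the fibroblast sum was 201 to 277 CPM without CGRP and 444 to 698 with it, without overlap. *Pdpn*, *Col3a1* and *Dcn* were higher there, in the direction of *Clec4n* and *Clec4d*. *Pdpn*, which also rose in IAIE cells, held 171 to 253 CPM of the sum without CGRP and 317 to 409 with it. Within the CD11c CGRP libraries the sum ran 698, 509 and 444 CPM, and *Clec4n* ran 366, 457 and 517. Lining macrophage markers summed to 560 to 743 and 531 to 686 CPM in IAIE cells without and with CGRP. In CD11c cells they summed to 236 to 317 and 222 to 397 CPM, and so lay lower, as *Clec4d* and *Clec5a* did. Within this list, *Timd4* was instead higher in CD11c cells. With CGRP, *Cx3cr1* was lower in IAIE cells and *Vsig4* was higher in CD11c cells, of 5 tested. Mast cell markers ranged from 0 to 136 CPM over all libraries. The part of these other cells in the receptor results was not tested.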

How the data were processed

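RNA of sorted synovial macrophages was sequenced in 12 libraries made with a stranded total RNA kit from 5 ng. According to the labels and the study's methods, the authors trimmed reads with Trim Galore, used HISAT2 for the alignment to mm10 and featureCounts for counting. Versions, annotation and strand setting are not given in the sources used here. The deposited values are raw read counts for each gene symbol. A combined table repeats the 12 libraries exactly, and 6 of its columns that match no sample were not used.

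Groups came from the sample titles. Genes were kept with filterByExpr (minimum count 10, minimum total 15), scaled by TMM and fitted together in edgeR 4.0.16 (R 4.3.3) with the quasi-likelihood test, 1 mean per group and 5 contrasts. The Benjamini-Hochberg adjustment ran over all 11927 genes and the threshold was 0.05; adjusted p-values are from this fit unless another tool is named. SE is the absolute log2 change divided by the square root of the F statistic, and 95% intervals use the t distribution with the fit's degrees of freedom. The test was checked on simulated counts for the CGRP comparison in IAIE cells. It recovered 36 of 96 genes changed 2-fold (37.5%) and 71 of 95 changed 4-fold (74.7%), with 5 false calls. A true difference of 2-fold can therefore fail to pass. Counts and floors cover counting error only. Exon lengths and positions are from GENCODE M21 and promoters from RefSeq.

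The alternatives were RLE and upper-quartile scaling, both other filters, the replicate number as a block, 1 surrogate variable (sva 3.50.0), DESeq2 1.42.0, limma-voom 3.58.1 with quality weights, the compared libraries alone, thinning to the lowest total and leaving out each library. The labels do not say whether same-numbered libraries came from the same tissue. Same-numbered deviations from the group means correlated at 0.332, 0.128 and 0.205 over 5411 genes between the CGRP libraries of both subsets. The correlations elsewhere were not all above 0.1. Libraries with different numbers were not compared, so these values cannot establish a pairing. The main fit used no pairing, and the replicate block covered all 4 groups. The members and lists were chosen with earlier results of these data known. All 10 members are named, plus Fcer1g, Tyrobp, Syk and Card9, up to 5 genes of the signalling and lectin lists past the threshold with the smallest p per CGRP contrast, and the 5 tested genes (mean of at least 5 CPM, predicted genes left out) most like each of the members with the widest range. Clec4b1, Clec4a4, Clec4b2 and Gm44147 are named for their position or shared sequence. Of the genes this rule picks, 2 are not reported here, and 1 of them, called in a CGRP comparison, was left out of the signalling list.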

Additional observations from a re-analysis of the deposited data

How the results depend on the processing

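Under 22 alternatives, the CGRP comparison in CD11c cells called 3 of the 10 genes each time and the subset comparison without CGRP called 5 each time. In IAIE cells the count ranged from 3 to 6, reaching 6 by DESeq2 and when all libraries had to hold at least 10 counts. The interaction called 2 with every gene of at least 1 count, 1 with the replicate block and 1 with DESeq2, and 0 otherwise, leaving out each library included (0 to 0). The subset comparison with CGRP called 3 to 5 when each library was left out in turn. The replicate block changed no other call of the 10 genes. The changes past or under the threshold stand with their values beside the results, and the cause of each was not tested.

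Signs turned only for differences that did not pass. Without single libraries, *Clec4e* with CGRP in IAIE cells ranged from -0.08 to 0.14, *Clec7a* from -0.47 to 0.06, and *Clec4a2* in CD11c cells from -0.16 to 0.00. The interaction ranged from -0.18 to 0.02 for *Clec4d*, -0.46 to 0.08 for *Clec7a* and -0.10 to 0.61 for *Clec4a3*. The subset difference without CGRP ranged from -0.19 to 0.27 for *Clec4a1* and -0.67 to 0.06 for *Clec4a3*. With CGRP it ranged from -0.20 to 0.16 for *Clec4e*, -0.32 to 0.18 for *Clec4a3* and -0.33 to 0.06 for *Clec10a*. *Clec4e* with CGRP in IAIE cells was -0.04 with upper-quartile scaling. *Clec4a1* without CGRP was 0.04 with every gene of at least 1 count, 0.01 with a surrogate variable and 0.01 by limma-voom. Between subsets with CGRP, *Clec4e* was -0.01 with the replicate block and -0.05 by limma-voom, *Clec4a3* was 0.09 with a surrogate variable and 0.06 after thinning, and *Clec10a* was 0.06 and 0.01 with a surrogate variable and limma-voom. Upper-quartile scaling moved the median of all genes by -0.05 in both CGRP comparisons. Each group had 3 libraries, and *Clec4a3*, *Clec5a* and *Clec12a*, with group means of 8.89 to 50.1 CPM, rest on few reads.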
